A study of Mus musculus with 18 samples.

Results

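The 10 integrin subunits of crypt epithelium were followed by their gene symbols in the table of counts, over all 18 libraries. They are the alpha subunits *Itga1*, *Itga2*, *Itga3*, *Itga6* and *Itgav* and the beta subunits *Itgb1*, *Itgb4*, *Itgb5*, *Itgb6* and *Itgb8*. All 10 symbols were found once among 43346 genes. The libraries came from crypts of the small intestine (SI) and the large intestine (LI) of mice that had not been treated, with the *Lgr5-eGFP-IRES-CreERT2* allele on a C57BL/6 background, aged 8 to 20 weeks per the labels, while the study's methods give a wider range. In this knock-in, GFP and a tamoxifen-inducible Cre are made from the *Lgr5* locus, so every group carries the same allele and GFP stands for *Lgr5* activity. EPCAM-positive cells were sorted by GFP into high (crypt centre, rows 0 to 1), medium (border, rows 2 to 3) and low (row >3), with 3 replicates for each level and site and 6 groups in all. Which mouse a replicate number stands for was not stated in the sources used, so p-values measure the spread between these libraries.

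Integrins are receptors of 1 alpha and 1 beta chain that tie a cell to the matrix outside and to the cytoskeleton inside. The alpha 3, alpha 6 and beta 4 chains serve receptors for laminin, the main adhesive protein of the basement membrane under the crypt, and alpha 6 with beta 4 forms the core of the hemidesmosome, which is anchored to keratin filaments. The alpha 1 and alpha 2 chains pair with beta 1 and bind collagens, whereas alpha v pairs with beta 5, beta 6 or beta 8 to bind proteins with an RGD motif, among them the latent form of TGF-beta. RNA was measured here, not protein, so the pairing of chains at the membrane was not observed.

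Libraries held between 8312093 and 31940965 counts on genes, with a median of 21934851. Values below are normalised read counts, which are counts divided by 1 size factor per library, unless a scale is named. The epithelial markers were high, and *Lgr5* itself was lower in row >3 than in centre libraries. It had 2434 to 5252 normalised read counts in SI centre, 157 to 2028 in border and 28.1 to 279.6 in row >3 libraries. The SI border and row >3 ranges overlapped. In the LI the same gene ranged over 2176 to 2575, 1184 to 1676 and 134 to 466. The 8 stromal and endothelial markers summed to between 7.3 and 371. The 8 leukocyte markers summed to 5362 to 11947 in SI replicates 1 and 2, 1385 to 1666 in SI replicate 3 and 107 to 738 in the LI. Most of the SI sums was *Cd74*, the invariant chain of MHC class II, which SI epithelium also makes, with 1267 to 11893 there. Of the other 7, *Ptprc* (CD45) had 21.2 to 555, *Coro1a* at most 26.0, and *Cd3e*, *Cd3g*, *Cd8a*, *Cd52* and *Lyz2* at most 9.44 in any library.

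The 3 SI libraries of replicate 3 stood apart from the other 6 SI libraries. *Car1*, a carbonic anhydrase of colon enterocytes, had 1668 in centre, 22796 in border and 38981 in row >3 of this replicate, against 0 to 215 in SI replicates 1 and 2. Those values were 46.5%, 265% and 184% of the LI mean at the same level. *Gata4*, a transcription factor of the proximal SI, had 141, 148 and 129.6 in the same 3 libraries, 134 to 304 in the other SI libraries and at most 1.18 in the LI. The colon gene was thus high in these libraries as it was in the LI, and the SI gene was kept. The 6 crypt base stem cell markers summed to 31385, 4476 and 1702 in centre, border and row >3 of replicate 3. In SI replicates 1 and 2 they summed to 107298 to 112166, 41795 to 75631 and 7872 to 14346. The border sum of replicate 3 was thus below the row >3 sums of replicates 1 and 2. The calls among the 10 genes are given with and without these 3 libraries.

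Compared per kilobase of exon, so that genes of different length can be set side by side, *Itgb1* and *Itga6* led the 10 genes. Their length-scaled levels were 742 ± 113 and 627 ± 118 normalised read counts per kilobase (SD over 18 libraries). *Itgb4* with 351 ± 106, *Itga3* with 293 ± 96.8 and *Itga2* with 151 ± 44.6 followed. The chains that partner each other in laminin binding were therefore the most abundant of the set, together with beta 1, the shared partner of most alpha chains. *Itgb5* at 84.3 ± 55.3, *Itgav* at 43.9 ± 8.55, *Itgb6* at 40.7 ± 8.21 and *Itga1* at 18.8 ± 11.8 made up a lower group, and *Itgb8* at 0.671 ± 0.619 was close to undetected. Neighbours in this order overlapped across libraries, except that *Itga1*, at least 6.11, lay above *Itgb8*, at most 1.62. *Itgb8* summed to 145 counts over the 18 libraries, against 5472 to 108728 for the other 9 genes, so its differences were known with little precision.

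**Figure D1:**
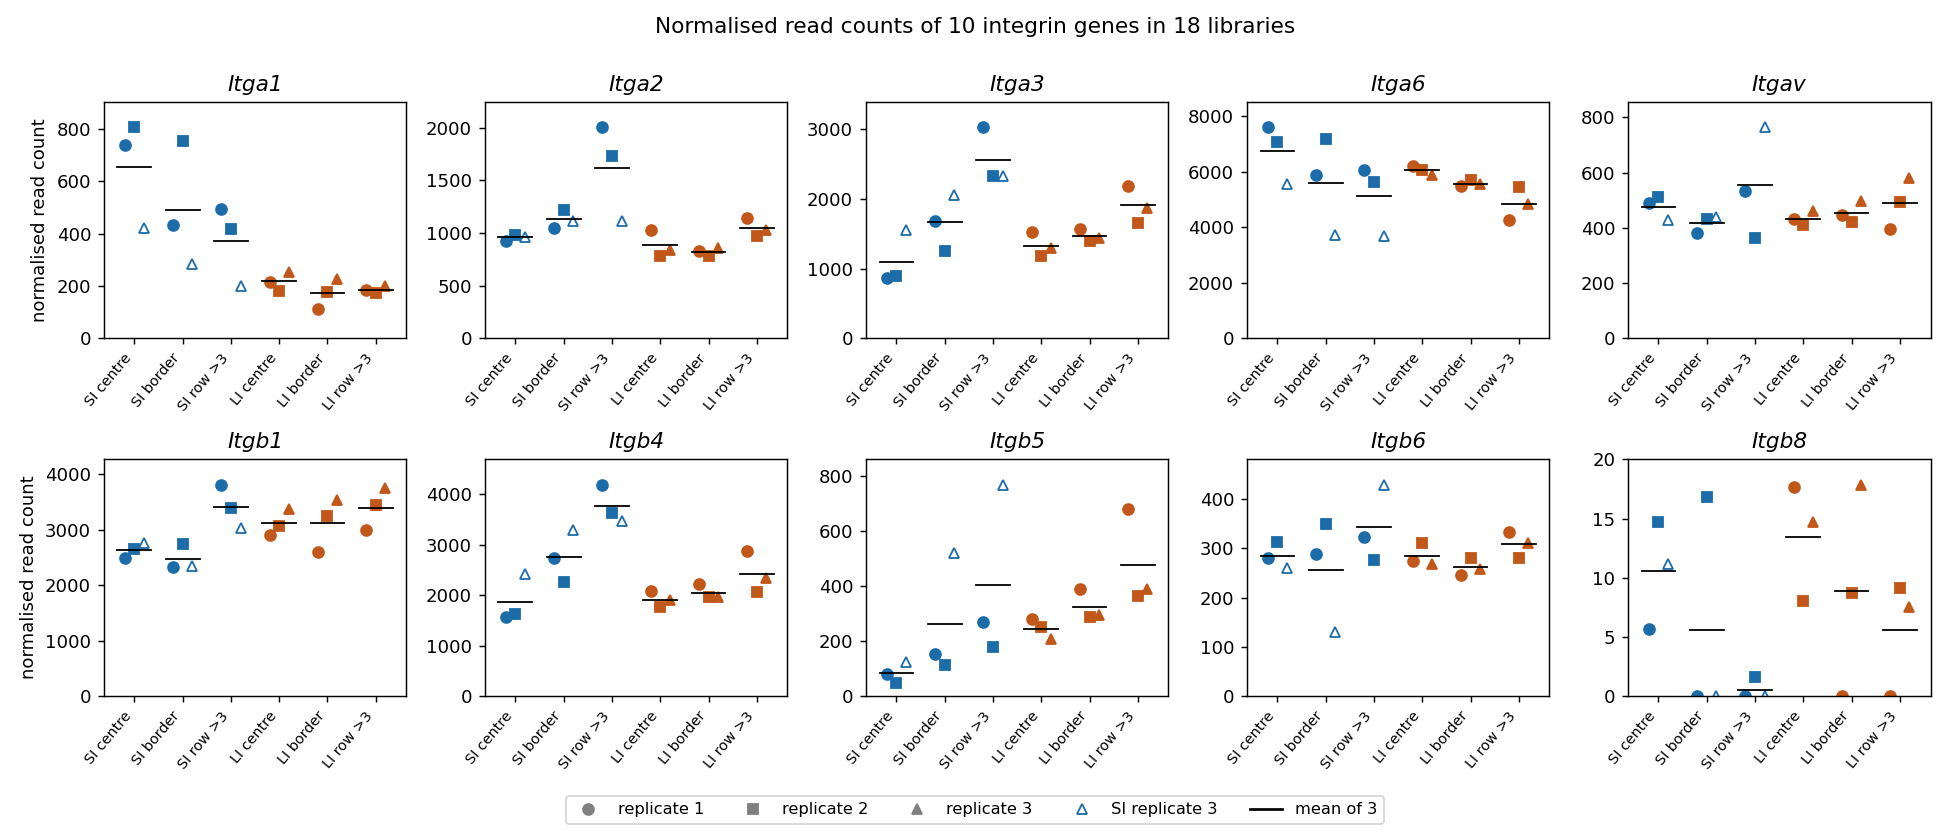
Normalised read counts (linear axis from 0, one scale per gene) of the 10 integrin genes in 18 libraries. Symbols mark replicates, open triangles are SI replicate 3, and the line is the mean of 3. *Itgb4* and *Itga3* were higher in row >3 than in centre libraries of the SI, *Itga1* was higher in SI centre than in LI centre libraries, and SI replicate 3 held the highest *Itgb5* values of the SI at each level.

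The question of the first comparison is how these genes differ between cells that leave the crypt base and cells at its centre. In the SI, 4 integrins were higher in row >3 than in centre cells and none was lower, at an adjusted p under 0.05 (quasi-likelihood test of edgeR, Benjamini-Hochberg adjusted), where 13.2% of all 26717 genes tested were called. The 4 were *Itga3*, *Itgb4*, *Itga2* and *Itgb5*. With low-count genes filtered out by filterByExpr, 4 of the 10 were called too, where 25.8% of 15998 genes were. The median log2 difference was 0.32 over the 10 genes and 0.00 over all genes tested. It was 0.12, against -0.05 over all genes, with scaling by library size only, where 3 of the 10 and 12.5% of all genes were called. With a replicate block for each site, which pairs libraries that deviated together, 7 integrins were called, 5 higher and 2 lower, where 22.8% of all genes were called. The fit without SI replicate 3 again called *Itga2*, *Itga3*, *Itgb4* and *Itgb5*, where 17.1% of all genes were. Row >3 libraries of the SI also had higher sums of goblet and absorptive markers. The 6 goblet markers summed to 641039 to 1037232 normalised read counts there, against 15369, 27582 and 214921 in SI centre replicates 1, 2 and 3, and replicate 3 also had the highest *Itga3* and *Itgb4* of the centre. The 8 absorptive markers summed to 12097 to 27490 in row >3 and 1374 to 4561 in centre, and the 6 crypt base stem cell markers to 1702 to 14346 and 31385 to 112166. The 6 Paneth markers, by replicate, summed to 29031, 138581 and 32464 in SI centre libraries. In SI row >3 libraries they summed to 50801, 75819 and 3116, which was lower in replicates 2 and 3. The part of these markers in the integrin differences was not tested. In bulk RNA, fewer cells of a type and less RNA per cell cannot be told apart.

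*Itga3*, the alpha chain of the laminin receptor alpha 3 beta 1 (chr11:95044474-95076801 on GRCm38, minus strand), had 865, 891 and 1553 normalised read counts in SI centre libraries of replicates 1, 2 and 3. The border libraries had 1686, 1259.8 and 2065 and the row >3 libraries had 3035, 2328 and 2337. Row >3 and centre libraries did not overlap, and SI replicate 3 was the highest of its group in centre and border. The difference between row >3 and centre was 1.22 ± 0.22 on the log2 scale (SE), which is 2.33-fold, with an adjusted p of 0.00065 by edgeR. Leaving out SI replicate 3 gave 1.62 ± 0.19, with an adjusted p of 1.2e-06. In the LI, *Itga3* had 1522, 1178 and 1296 in centre, 1564, 1392 and 1444 in border and 2194, 1660.4 and 1878 in row >3 libraries. The LI row >3 libraries lay above all LI centre libraries, and the difference of 0.53 ± 0.21 had an adjusted p of 0.62.

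*Itgb4*, which encodes the beta chain of the hemidesmosome (chr11:115974709-116008412, plus strand), had 1575, 1622 and 2407 in SI centre, 2725, 2250.0 and 3284 in border and 4186, 3620.4 and 3462 in row >3 libraries. Within each SI replicate the value was higher at border than at centre and higher in row >3 than at border. Row >3 exceeded centre by 1.01 ± 0.18 on the log2 scale, or 2.01-fold, with an adjusted p of 0.00071, and by 1.29 ± 0.17 without SI replicate 3, with an adjusted p of 5.5e-06. LI libraries had 2077, 1756 and 1896 in centre, 2218, 1970.0 and 1961 in border and 2869, 2060.5 and 2337 in row >3. Centre and row >3 overlapped in the LI, by *Itgb4* of replicate 1 in centre and replicate 2 in row >3, and the difference was 0.35 ± 0.18 with an adjusted p of 0.75. Part of the exons of *Itgb4*, 537 bases, lies opposite a non-coding gene on the other strand, and whether counting used the strand was not stated.

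*Itga6*, the alpha partner of beta 4 and also of beta 1 (chr2:71745616-71858416, plus strand), went the other way. SI libraries had 7610.5, 7078 and 5566 in centre, 5891, 7169 and 3721 in border and 6075, 5618 and 3687 in row >3. Centre and row >3 overlapped only through replicate 3 of the centre. The difference was -0.40 ± 0.19 with an adjusted p of 0.22, and with the replicate block it was -0.42 ± 0.11 with an adjusted p of 0.0068. It was -0.32 ± 0.15 without SI replicate 3, with an adjusted p of 0.16. Leaving out 1 library at a time in the fit without a block gave -0.534 to -0.206, with 0 calls. In the LI, the values were 6215, 6061 and 5891 in centre, 5478, 5695 and 5546 in border and 4278, 5435 and 4825 in row >3. Every LI row >3 library was below every LI centre library, with a difference of -0.32 ± 0.19 and an adjusted p of 0.84.

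*Itgb1*, the common beta chain of matrix receptors (chr8:128685654-128733200, plus strand), had group means that spanned 0.523 on the log2 CPM scale. It had 2490.1, 2652 and 2757 in SI centre, 2330.5, 2749 and 2349 in border and 3816, 3391 and 3032 in row >3 libraries. Row >3 libraries were above all centre libraries, by 0.38 ± 0.15, with an adjusted p of 0.12 in the fit without a block and 0.012 with the replicate block. LI libraries ranged from 2599 to 3749.6 over the 3 levels, and row >3 exceeded centre there by 0.13 ± 0.15 with an adjusted p of 0.97.

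The balance of the laminin chains differed between levels in both sites as a description of these libraries. On the length-scaled level, the ratio of *Itgb4* to *Itga6* was 0.373 ± 0.160 in SI centre, 0.712 ± 0.380 in border and 0.975 ± 0.204 in row >3 libraries (SD, n = 3). The LI ratios were 0.406 ± 0.0296, 0.474 ± 0.0412 and 0.658 ± 0.190. Lowest and highest values of centre and row >3 did not overlap in either site, with 0.266 to 0.556 and 0.829 to 1.21 in the SI and 0.373 to 0.430 and 0.488 to 0.863 in the LI. Among the 5 alpha chains, *Itga6* took 64.5% ± 6.83 of the length-scaled level in SI centre and 42.9% ± 4.08 in SI row >3 libraries, while *Itga3* took 12.5% to 25.0% and 30.7% to 38.8% (lowest and highest of 3). In the LI, *Itga6* took 62.2% ± 2.53 in centre and 49.9% ± 5.51 in row >3, and *Itga3* took 21.5% ± 1.62 and 31.2% ± 4.65. Shares of 1 total depend on each other, and these were not tested.

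**Figure D2:**
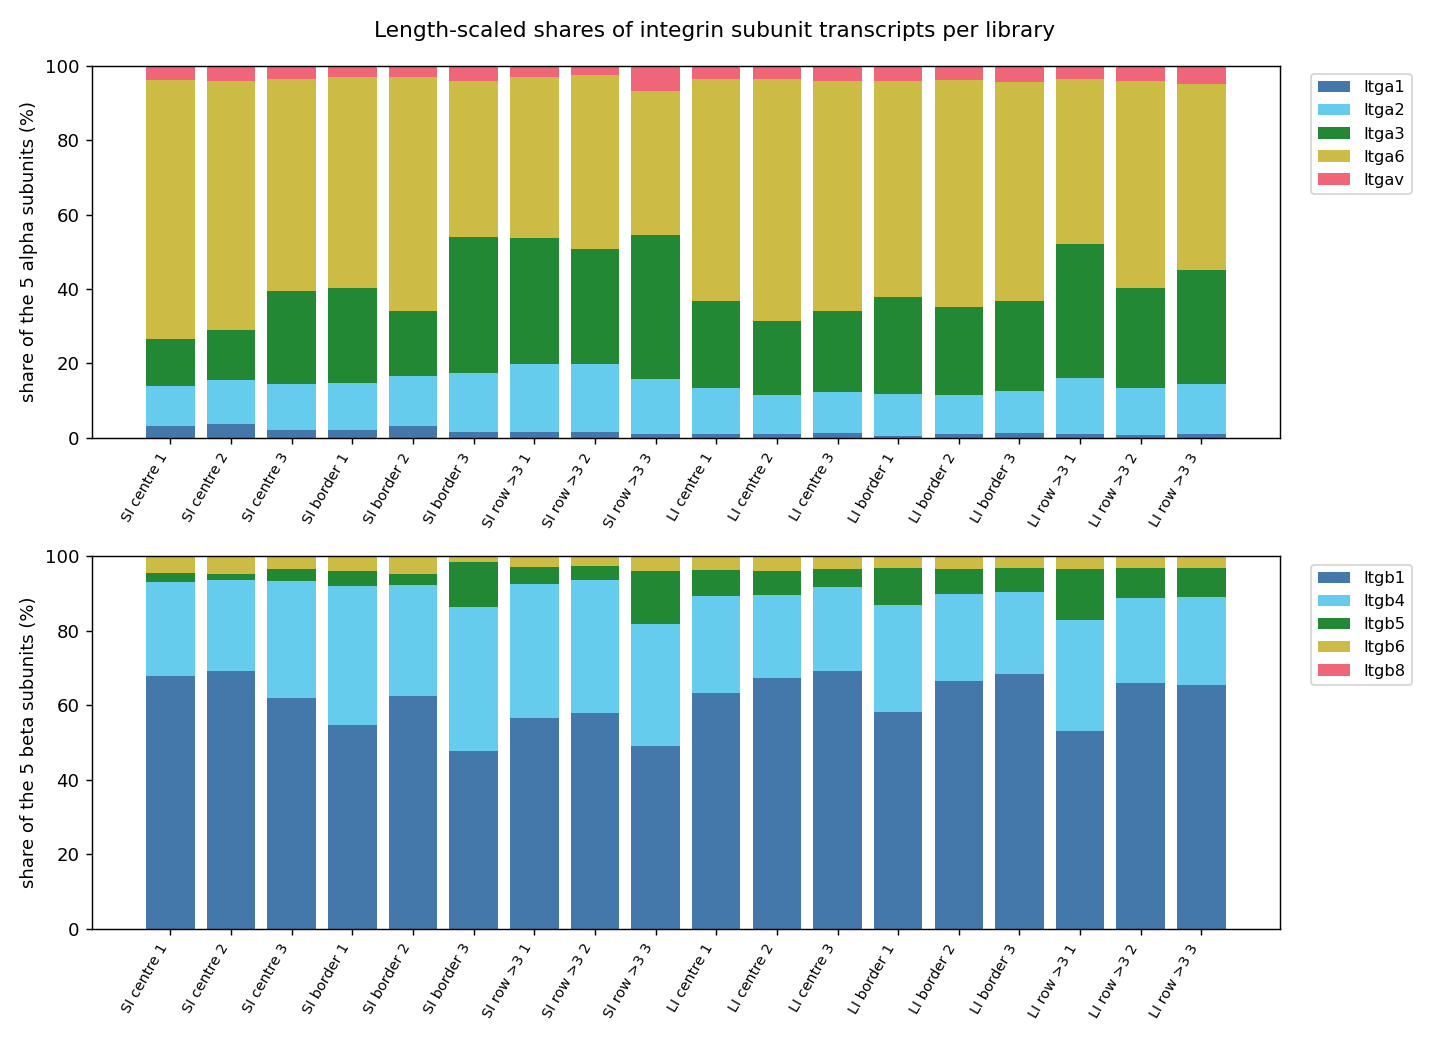
Shares (%) of the length-scaled level within the 5 alpha chains (top) and within the 5 beta chains (bottom), 1 bar per library, numbered by replicate. *Itga6* took 56.8% to 69.7% of the alpha chains in SI centre libraries and 38.7% to 46.8% in SI row >3 libraries, and *Itgb8* is too low to be seen.

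Across the 18 libraries, *Itga3* and *Itgb4* had a Pearson coefficient of 0.938 on the log2 CPM scale and *Itga6* and *Itgb4* one of -0.682. These points share libraries, groups and depth, so the coefficients describe the set. By contrast, *Itgb1* had 0.388 with *Itga3*, -0.0221 with *Itga6*, 0.219 with *Itga2*, -0.359 with *Itga1* and 0.38 with *Itgav*.

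**Figure D3:**
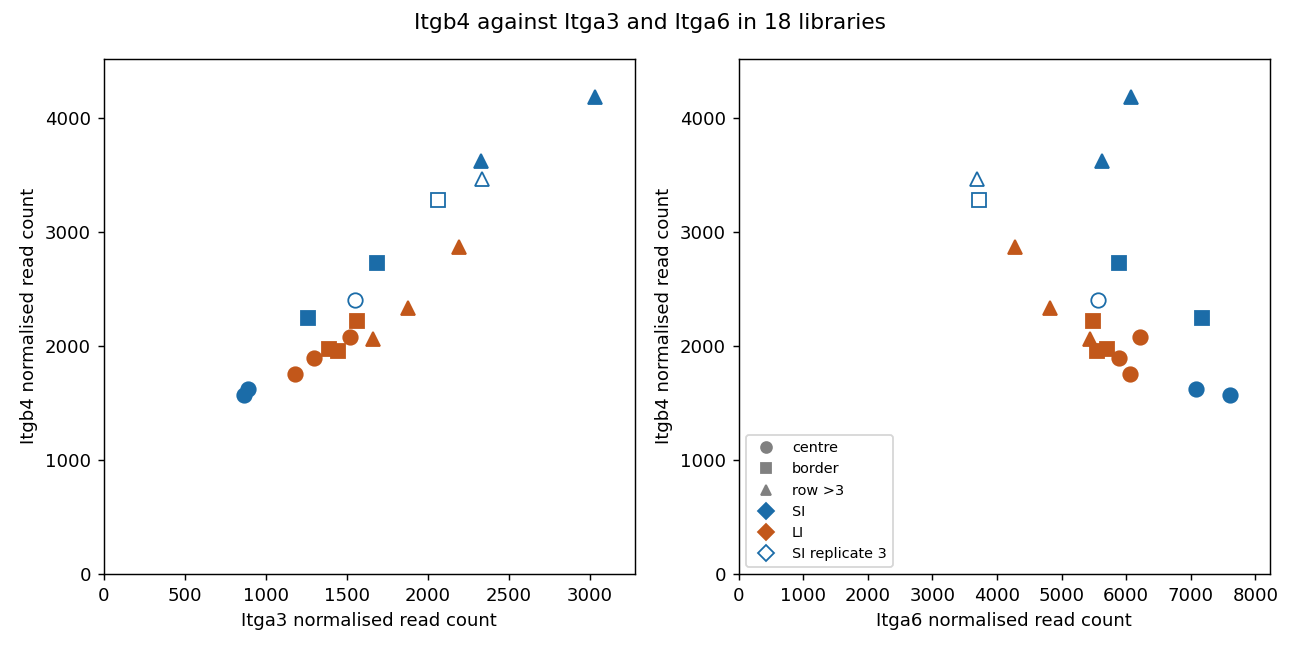
Normalised read counts of *Itgb4* against *Itga3* (left) and against *Itga6* (right), 1 point per library, all axes linear from 0. Colour gives the site, shape the Lgr5 level, and open symbols are SI replicate 3. *Itgb4* was high where *Itga3* was high, with the SI centre libraries of replicates 1 and 2 at the low end and SI row >3 replicate 1 at the high end.

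*Itga2*, the alpha chain of the collagen receptor alpha 2 beta 1 (chr13:114833081-114932100, minus strand), had 929, 985 and 963 in SI centre, 1051, 1219.6 and 1117 in border and 2007, 1729.6 and 1115 in row >3 libraries. Each row >3 library exceeded each centre library, replicate 3 by the least. The difference was 0.76 ± 0.18 on the log2 scale, or 1.69-fold, with an adjusted p of 0.0061, and 0.97 ± 0.17 without SI replicate 3, with an adjusted p of 0.00024. It lost the call without row >3 replicate 1, where it was 0.57 with an adjusted p of 0.069, and under library size scaling, where it was 0.58 with an adjusted p of 0.083. LI libraries had 1027, 781 and 839 in centre, 828, 785 and 856 in border and 1144, 976 and 1029 in row >3, which overlapped, and the difference between row >3 and centre was 0.26 ± 0.18 with an adjusted p of 0.90.

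*Itga1*, whose product is the other collagen receptor chain (chr13:114953096-115101964, minus strand), showed a site difference. SI libraries of replicates 1, 2 and 3 had 739, 808 and 422 in centre, 434, 756 and 284 in border and 494, 419 and 199.8 in row >3. The LI libraries had 218, 183 and 253 in centre, 114, 178 and 229 in border and 185, 174 and 202 in row >3. SI and LI did not overlap in centre or in border, and in row >3 they overlapped through SI replicate 3. Within the SI, centre and row >3 overlapped, their difference was -0.80 ± 0.34 on the log2 scale with an adjusted p of 0.14, and the replicate block gave -0.82 ± 0.19 with an adjusted p of 0.0030. In the fit without SI replicate 3 it was -0.75 ± 0.26 with an adjusted p of 0.054. Part of the exons, 685 bases of 18599, is shared with another annotated gene on the same strand, so some reads may belong to it.

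*Itgb5*, a beta partner of alpha v that binds vitronectin (chr16:33829665-33949338, plus strand), had the widest spread in the SI among the 4 called. It had 81.0, 47.9 and 125 in SI centre, 153, 113 and 519.7 in border and 268, 178 and 768 in row >3 libraries. Row >3 and centre libraries did not overlap, and replicate 3 was the highest at each level. The difference was 2.24 ± 0.62, or 4.72-fold, with an adjusted p of 0.026, against 1.79 ± 0.36 without SI replicate 3, with an adjusted p of 0.00080. Leaving out single libraries ended the call for centre replicate 1 (adjusted p = 0.097), centre replicate 2 (adjusted p = 0.11) and row >3 replicate 3 (adjusted p = 0.087), where it was 1.41. In the LI, the values were 279, 250.0 and 208 in centre, 388, 287 and 293 in border and 678, 365 and 390.4 in row >3. LI row >3 libraries were all above LI centre libraries, by 0.96 ± 0.57 with an adjusted p of 0.83.

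The LI comparison of row >3 with centre called 0 of the 10 integrins by edgeR, where 0.0187% of all genes were called, and 1 of the 10 had an unadjusted p under 0.05. DESeq2 called 0 as well, where it called 0.348% of all genes. With the replicate block, *Itgb5* was called at 0.92 ± 0.19 and an adjusted p of 0.013, where 2.59% of all genes were. When the fit left out SI replicate 3, whose spread no longer entered the common estimate, *Itgb5* was called in the LI at 0.95 ± 0.24 with an adjusted p of 0.042, where 1.9% of all genes were.

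**Figure D4:**
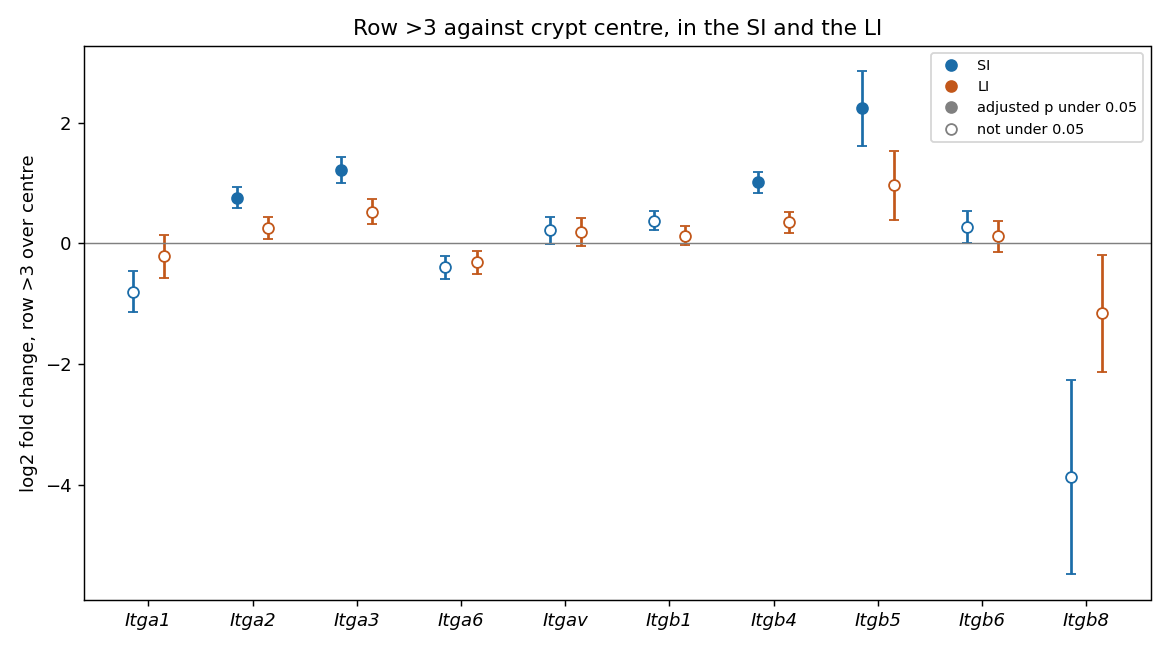
Log2 fold change of row >3 over centre cells with its SE, in the SI and the LI, from edgeR on 18 libraries. Filled points have an adjusted p under 0.05. *Itga2*, *Itga3*, *Itgb4* and *Itgb5* are filled in the SI and no point is filled in the LI, and *Itgb8* has an SE of 1.61 in the SI.

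The alpha v chain and its other beta partners showed no called difference. *Itgav* (chr2:83724397-83806916, plus strand) had 489, 513 and 429.9 in centre libraries of the SI against 535, 364 and 765 in row >3, and these overlapped. Its difference was 0.22 ± 0.23 with an adjusted p of 0.68, it was -0.15 ± 0.22 without SI replicate 3 (adjusted p = 0.83), and all 18 libraries lay between 364 and 765. *Itgb6*, the epithelial beta chain known for activating latent TGF-beta (chr2:60598292-60722643, minus strand), ranged from 130.4 in SI border replicate 3 to 429 in SI row >3 replicate 3, and from 245 to 333 in the LI. Its row >3 difference was 0.26 ± 0.26 in the SI with an adjusted p of 0.65, or 0.02 ± 0.22 without SI replicate 3 (adjusted p = 1), and 0.11 ± 0.26 in the LI with an adjusted p of 1. On the length-scaled level the ratio of *Itgb5* to *Itgb6* was 0.615 ± 0.329 in SI centre and 1.73 ± 0.260 in LI centre libraries, with ranges of 0.306 to 0.961 and 1.55 to 2.03 that did not overlap. The sites overlapped in border libraries, with 0.645 to 7.97 in the SI and 2.05 to 3.17 in the LI, and in row >3 libraries, with 1.29 to 3.58 and 2.52 to 4.07. For *Itgav*, 634 exon bases lie opposite a non-coding gene on the other strand.

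*Itgb8*, a further partner of alpha v (chr12:119158022-119238802, minus strand), was given in counts because it was sparse. SI centre libraries had 7, 16 and 12 counts, border libraries 0, 13 and 0, and row >3 libraries 0, 2 and 0. Summed, the SI had 35 counts in centre and 2 in row >3, a log2 ratio of -4.12 after size factors, with an exact 95% counting interval of -7.22 to -2.16. That interval covers counting error only, and edgeR over the replicates gave an adjusted p of 0.13. LI libraries had 15, 11 and 18 counts in centre, 0, 7 and 24 in border and 0, 12 and 8 in row >3, a log2 ratio of row >3 to centre of -1.15 with an interval of -1.99 to -0.36. A library with 0 counts allows up to 3 counts.

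Border cells were compared with centre cells in the same way. In the SI, 0 integrins were called, where 0.0112% of all genes were, and 3 of the 10 had an unadjusted p under 0.05, while DESeq2 also called 0, against 0.782% of all genes. The 3 were *Itgb4* at 0.55 ± 0.18 (adjusted p = 0.32), *Itga3* at 0.59 ± 0.22 (adjusted p = 0.37) and *Itgb5* at 1.68 ± 0.62 (adjusted p = 0.42). With the replicate block, *Itgb4* was called at 0.56 ± 0.13 with an adjusted p of 0.032 and *Itgb5* at 1.55 ± 0.26 with an adjusted p of 0.0051, where 2.32% of all genes were called. *Itga3* had 0.60 ± 0.16 with an adjusted p of 0.051 in that fit. The *Itgb5* step moved with replicate 3, at 0.96 ± 0.42 without it (adjusted p = 0.61) and as low as 0.59 with a single library left out. When SI replicate 3 was left out, edgeR called 0 of the 10, where 0.963% of all genes were called and 3 integrins had an unadjusted p under 0.05, and DESeq2 was not run on those libraries. In the LI, 0 of the 10 were called and 0 had an unadjusted p under 0.05, by edgeR or DESeq2, and 0% of all genes were called with or without the block. The share in the LI was 0.00382% without SI replicate 3, and edgeR called 0 integrins, of which 0 had an unadjusted p under 0.05.

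Whether the step from centre to row >3 differed between SI and LI was tested as the difference of the 2 contrasts. By edgeR, 0 integrins and 0% of all genes were called, 2 integrins had an unadjusted p under 0.05, and DESeq2 called 0 integrins and 0.558% of all genes. These 2 were *Itgb4*, larger in the SI by 0.66 ± 0.25 with an adjusted p of 0.55, and *Itga3*, larger by 0.69 ± 0.30 with an adjusted p of 0.65. With the replicate block, *Itgb4* at 0.71 ± 0.19 (adjusted p = 0.049) and *Itgb5* at 1.24 ± 0.30 (adjusted p = 0.036) were called, where 2.32% of all genes were. Without SI replicate 3, *Itga3* at 1.10 ± 0.24 (adjusted p = 0.0079) and *Itgb4* at 0.96 ± 0.21 (adjusted p = 0.011) were called, where 3.27% of all genes were. *Itgb5* had 0.83 ± 0.44 with an adjusted p of 0.49 in that fit. For the step from centre to border, 0 integrins and 0% of all genes were called by edgeR, with or without the block, and 0 integrins by DESeq2, which called 0.00749% of all genes, and 0 had an unadjusted p under 0.05 in the fit without a block. That step called 0 integrins without SI replicate 3, where 0.16% of all genes were called and 2 integrins had an unadjusted p under 0.05.

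The SI was then compared with the LI at each level. These comparisons use the same libraries as those between levels, so they are not independent of them. In centre cells 1 integrin was called, where 1.99% of all genes were, and it was *Itga1*, 2.89-fold higher in the SI, at 1.53 ± 0.35 on the log2 scale with an adjusted p of 0.024. In border cells *Itga1* was again the 1 integrin called, where 1.75% of all genes were, at 1.42 ± 0.36 with an adjusted p of 0.045. A replicate block over all libraries gave 1.35 ± 0.36 in border cells with an adjusted p of 0.044, where 4.27% of all genes were called. Whether replicate numbers pair the sites was not settled. In row >3 cells 0 of the 10 were called by edgeR, where 4.09% of all genes were, and 3 had an unadjusted p under 0.05. Those were *Itgb4* at 0.58 ± 0.18 (adjusted p = 0.076), *Itga2* at 0.57 ± 0.18 (adjusted p = 0.078) and *Itga1* at 0.95 ± 0.35 (adjusted p = 0.16), and DESeq2 called *Itga2* and *Itgb4*, where it called 6.34% of all genes. The leukocyte marker sum, mostly *Cd74*, was also higher in every SI than in every LI library and lowest within the SI in replicate 3. The 6 Paneth markers summed to 3116 to 138581 in the SI and to at most 236 in the LI. Within the SI, the Paneth sum was lowest in replicate 3 at border and in row >3, but not in centre. The part of these markers in the *Itga1* difference was not tested.

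The *Itga1* call depended on most single libraries. In centre cells it ended without SI replicate 1 (1.44, adjusted p = 0.10), SI replicate 2 (1.36, adjusted p = 0.12), LI replicate 1 (1.51, adjusted p = 0.084), LI replicate 2 (1.44, adjusted p = 0.13) or LI replicate 3 (1.67, adjusted p = 0.074), while without SI replicate 3 it was 1.79 with an adjusted p of 0.0060. In border cells it ended without SI replicate 1 (1.51, adjusted p = 0.088), SI replicate 2 (0.95, adjusted p = 0.22), LI replicate 1 (1.18, adjusted p = 0.15), LI replicate 2 (1.44, adjusted p = 0.15) or LI replicate 3 (1.71, adjusted p = 0.069), and was kept without SI replicate 3 (1.70, adjusted p = 0.011). The direction stayed towards the SI in each of these fits.

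Leaving out all 3 SI libraries of replicate 3 raised the number of integrins called between sites, as it did for all genes. In centre cells *Itga1* was higher in the SI by 1.81 ± 0.25 (adjusted p = 1.5e-05), and *Itga3* and *Itgb5* were lower, at -0.62 ± 0.17 (adjusted p = 0.020) and -1.92 ± 0.34 (adjusted p = 0.00031), where 10.9% of all genes were called. In border cells *Itga1* was higher by 1.76 ± 0.27 (adjusted p = 7.5e-05) and *Itgb5* lower, at -1.36 ± 0.34 (adjusted p = 0.011), where 8.1% were called. In row >3 cells *Itga1* at 1.29 ± 0.26 (adjusted p = 0.0010), *Itga2* at 0.83 ± 0.15 (adjusted p = 0.00050) and *Itgb4* at 0.68 ± 0.15 (adjusted p = 0.0023) were higher in the SI and *Itgb5* was lower, at -1.09 ± 0.28 (adjusted p = 0.0083), where 12.2% were called. With all 18 libraries, *Itgb5* differed between sites at -1.59 ± 0.61 in centre (adjusted p = 0.23), -0.30 ± 0.58 in border (adjusted p = 0.92) and -0.31 ± 0.56 in row >3 cells (adjusted p = 0.88). SI replicate 3 had 50.9%, 161% and 161% of the LI mean of *Itgb5* at the 3 levels, whereas SI replicates 1 and 2 had between 19.5% and 56.1%. The same SI libraries had 194%, 164% and 107% of the LI mean of *Itga1*, against 224% to 435% in SI replicates 1 and 2.

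**Figure D5:**
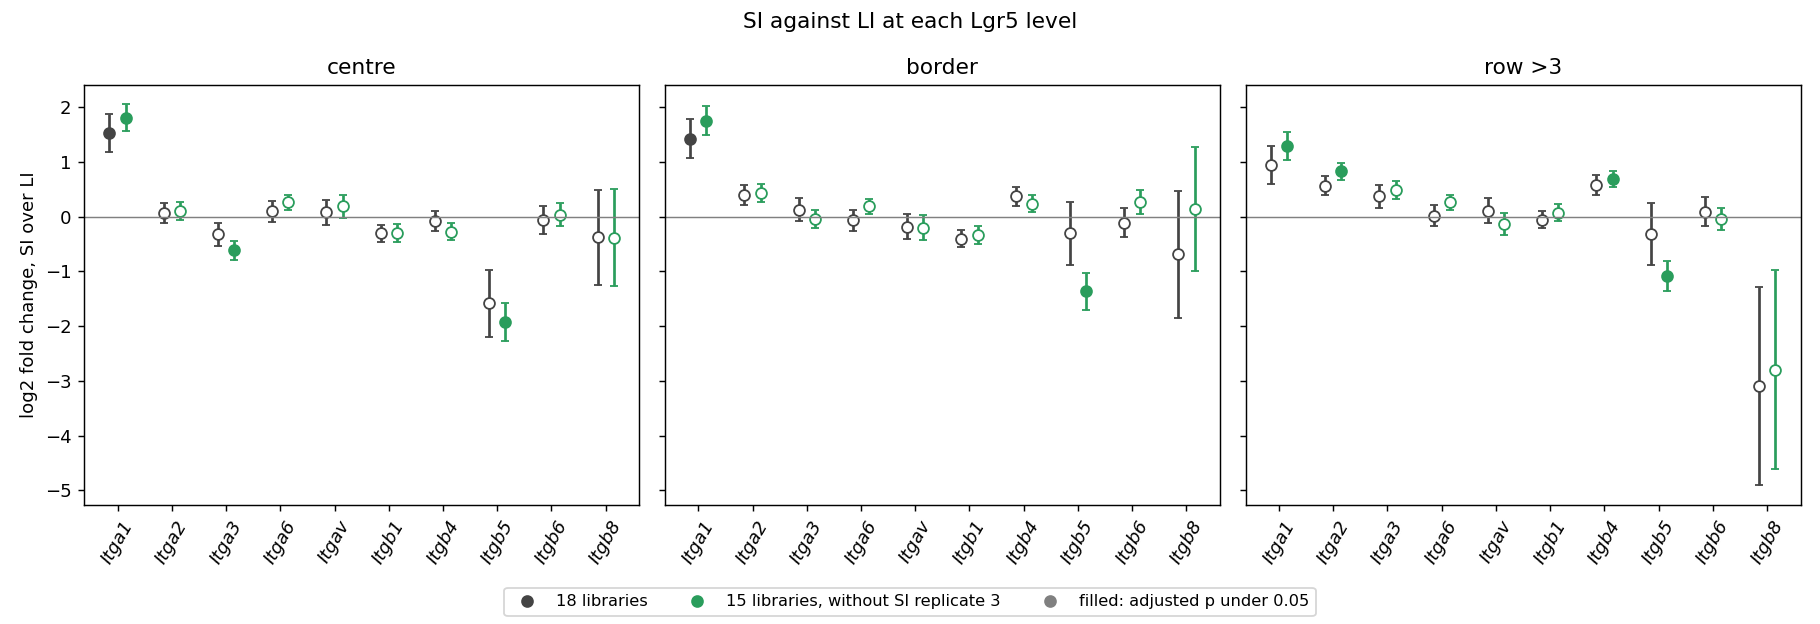
Log2 fold change of SI over LI with its SE at each Lgr5 level, from 18 libraries and from the 15 without SI replicate 3. Filled points have an adjusted p under 0.05. *Itga1* is above 0 at all levels in both fits, and *Itgb5* lies between -1.92 and -1.09 without SI replicate 3 and between -1.59 and -0.30 with it.

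The DNA before the start sites of the integrins called in the fit without a block and present in the RefSeq promoter table (GRCm38.p6) is shown so that it can be read beside these values. Of the 10 genes, 8 have an entry, and *Itga6* and *Itgb4* have none. Each run below is the 250 bases before the annotated start, 5′ to 3′ on the gene's strand, with each GGGCGG on either strand (the GC box, which binds SP1-family factors) in capitals.
Itga1, chr13:115101965-115102214, minus strand: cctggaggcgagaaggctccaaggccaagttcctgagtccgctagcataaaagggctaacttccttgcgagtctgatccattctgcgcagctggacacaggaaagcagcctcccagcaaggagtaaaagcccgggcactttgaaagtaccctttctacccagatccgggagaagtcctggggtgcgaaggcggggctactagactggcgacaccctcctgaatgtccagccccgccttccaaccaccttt
Itga2, chr13:114932101-114932350, minus strand: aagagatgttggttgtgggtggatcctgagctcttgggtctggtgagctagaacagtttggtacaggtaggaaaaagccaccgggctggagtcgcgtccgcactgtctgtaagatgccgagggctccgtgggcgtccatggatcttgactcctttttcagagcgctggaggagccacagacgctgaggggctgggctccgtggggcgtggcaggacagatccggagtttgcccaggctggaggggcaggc
Itga3, chr11:95076715-95076964, minus strand: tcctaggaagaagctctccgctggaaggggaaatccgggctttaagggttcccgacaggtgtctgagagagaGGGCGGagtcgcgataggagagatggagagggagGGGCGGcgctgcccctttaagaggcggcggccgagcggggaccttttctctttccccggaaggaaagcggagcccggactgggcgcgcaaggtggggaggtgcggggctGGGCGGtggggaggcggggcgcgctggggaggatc
Itgb5, chr16:33829415-33829664, plus strand: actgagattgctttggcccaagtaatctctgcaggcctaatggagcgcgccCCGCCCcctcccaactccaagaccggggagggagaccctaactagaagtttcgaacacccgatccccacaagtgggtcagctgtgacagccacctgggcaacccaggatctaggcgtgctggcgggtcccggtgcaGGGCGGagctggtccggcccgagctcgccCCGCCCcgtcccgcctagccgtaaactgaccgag

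The GC box was found 3 times in the window of *Itga3* and 3 times in that of *Itgb5*, and not in those of *Itga1* or *Itga2*, whereas 32.7% of 32851 promoter windows of the same length hold it. *Itga3* has another start site in the table, at chr11:95069199-95069448, which held 1 GC box. GC content was 67.6% and 65.2% in the windows of *Itga3* and *Itgb5*, 57.6% and 60.8% in those of *Itga1* and *Itga2*, and 52.4% in the median over all windows. None of the 4 sequences held TATAAA on either strand, which 12.4% of windows do. The TCF/LEF motif, searched as CTTTGAT on either strand, was absent from all 4 and is in 3.21% of windows. These are descriptions of letters in a window and say nothing of binding.

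For the members with the widest range of group means, the genes with the most similar pattern over 18 libraries were taken among about 8690 genes with a mean of at least 10 CPM. *Itgb5*, whose group means spanned 2.58 on the log2 CPM scale, was most like *Mrs2* (Pearson coefficient 0.965), *Capn5* (0.962) and *Pkm* (0.958). *Itga1*, with a span of 1.86, was most like *Pitx1* (0.943), *Lrrc31* (0.930) and *Mgam* (0.923). *Itgb8*, with a span of 2.70 in sparse counts, was most like *Zfp277* (0.947), *Npat* (0.915) and *Tfam* (0.885).

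Of 16 integrins outside the 10, *Itga9* was the 1 called in SI row >3 against centre cells, where 13.2% of all genes were, at 2.58 ± 0.86 with an adjusted p of 0.045. It had 6.48, 4.6 and 0 in centre, 70.8, 51.8 and 22.1 in border and 28.7, 31.6 and 1.56 in row >3 libraries of the SI. The replicate block also called it in border against centre, at 3.64 ± 0.72 (adjusted p = 0.0085). *Itgam*, a beta 2 partner usually of myeloid cells, was higher in the SI than in the LI by 3.56 ± 0.82 in border (adjusted p = 0.048) and 4.95 ± 0.84 in row >3 cells (adjusted p = 0.0045). It had 1393, 1199 and 142 in SI row >3 and 16.4, 33.4 and 34.9 in LI row >3 libraries. *Itgb2*, the gene of the beta 2 chain, had 0 counts in all SI border libraries, and was not at 0 throughout any other group. The same block called *Itgam* in SI row >3 against centre as well, at 1.46 ± 0.27 (adjusted p = 0.00037), and that step was larger in the SI than in the LI by 2.75 ± 0.55 (adjusted p = 0.016). The block also called *Itgb7* in SI row >3 against centre (adjusted p = 0.043), which was at 0 in all SI centre libraries and had 15.7, 3.16 and 7.81 in row >3. The part of the leukocyte markers in these differences was not tested. *Itga7*, another laminin-binding alpha chain, had 3.24, 7.37 and 299 in SI centre, 2.36, 13 and 212 in border and 21.2, 18.2 and 312 in row >3 libraries, against 249 to 514 in the LI. Its site difference was not called with SI replicate 3 (-1.59 ± 1.30 in centre, adjusted p = 0.67), and was -5.83 ± 0.50 in centre cells without it (adjusted p = 4.9e-09), -5.06 ± 0.54 in border (adjusted p = 2.6e-07) and -4.29 ± 0.37 in row >3 cells (adjusted p = 5.6e-09).

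Of 25 tested genes for integrin activators and the adhesion plaque, 7 were higher and 2 lower in SI row >3 than in centre cells, where 13.2% of all genes were called, and 0 were called in the LI, where 0.0187% were. Higher were *Pxn* (paxillin) by 0.89 ± 0.16 (adjusted p = 0.00061), *Actn4* (an actinin) by 0.84 ± 0.14 (adjusted p = 0.00050), *Tenc1* by 1.17 ± 0.28 (adjusted p = 0.0073), *Ilk* by 0.85 ± 0.26 (adjusted p = 0.032), *Tln1* (talin, which activates integrins) by 0.48 ± 0.13 (adjusted p = 0.012), *Rap1a* by 0.71 ± 0.22 (adjusted p = 0.030) and *Rap1b* by 0.77 ± 0.18 (adjusted p = 0.0056). *Apbb1ip*, an adaptor between Rap1 and talin, was lower, at -3.03 ± 0.56 (adjusted p = 0.0013), and so was *Tns3*, at -1.35 ± 0.18 (adjusted p = 5.8e-05). Without SI replicate 3, *Apbb1ip* was at -1.69 ± 0.37 (adjusted p = 0.0021). Under the replicate block, 10 genes of the list were higher and 4 lower in the SI, where 22.8% of all genes were called, with *Actn1*, *Bcar1* and *Vcl* added to the higher and *Fermt1* and *Tns1* to the lower ones. In the LI the block called *Tns3* at -0.80 ± 0.12 (adjusted p = 0.0015) and *Apbb1ip* at -1.01 ± 0.23 (adjusted p = 0.021), where 2.59% of all genes were called. The median log2 difference of the list was 0.20 for the SI and 0.12 for the LI, against 0.00 over all genes. *Lims1*, a partner of integrin-linked kinase, was lower in the SI than in the LI at each level, at -1.14 ± 0.22 in centre (adjusted p = 0.0086), -1.07 ± 0.23 in border (adjusted p = 0.015) and -0.83 ± 0.22 in row >3 cells (adjusted p = 0.036).

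Of 5 tested hemidesmosome partners, *Plec*, whose product plectin links beta 4 to keratin, was the 1 called, and higher, in SI row >3 against centre cells, where 13.2% of all genes were called. It had 10566, 10181 and 15822 in centre, 24589, 14959.6 and 33599 in border and 41558, 35461 and 39265 in row >3 libraries of the SI, and did not overlap between centre and row >3. The difference was 1.67 ± 0.28 with an adjusted p of 0.00083. LI centre libraries had 17456, 12203 and 12589 and LI row >3 libraries 30151, 16717 and 19688, which overlapped. With the replicate block, *Plec* was called in the LI at 0.64 ± 0.14 (adjusted p = 0.028), where 2.59% of all genes were, and its step was larger in the SI by 1.07 ± 0.20 (adjusted p = 0.016), where 2.32% were. In the SI that block called 3 of the 5 as higher in row >3, where 22.8% of all genes were called, adding *Dst* at 0.94 ± 0.28 (adjusted p = 0.016) and *Cd151* at 0.51 ± 0.16 (adjusted p = 0.023).

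Among 20 tested genes of basement membrane laminins, collagen IV and linkers, 1 was higher and 4 lower in SI row >3 than in centre cells, where 13.2% of all genes were called, and 0 were called in the LI, where 0.0187% were. Under the replicate block, 2 were higher and 5 lower in the SI, where 22.8% of all genes were called, and *Nid2* was lower in the LI, at -1.31 ± 0.24 (adjusted p = 0.0054), where 2.59% were. The higher one was *Lama3*, which encodes the alpha chain of an epithelial laminin that alpha 3 beta 1 and alpha 6 beta 4 bind, with a difference of 3.08 ± 0.83 (adjusted p = 0.021). *Lama3* had 85.9, 17.5 and 46.6 in centre libraries of the SI against 640.1, 109.8 and 535 in row >3, and at most 21.7 in any LI library. The lower ones were *Lama4* at -2.19 ± 0.45 (adjusted p = 0.0022), *Lamb2* at -1.91 ± 0.24 (adjusted p = 4.5e-05), *Lamc1* at -1.12 ± 0.36 (adjusted p = 0.047) and *Nid2* at -1.11 ± 0.27 (adjusted p = 0.0072). The list's median was -1.04 for the SI and -0.30 for the LI.

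Of 8 tested ligands of alpha v integrins, *Npnt* at -2.45 ± 0.55 on the log2 scale (adjusted p = 0.0043) and *Mfge8* at -1.88 ± 0.31 (adjusted p = 0.00034) were lower in SI row >3 than in centre cells, and 0 were higher, where 13.2% of all genes were called. The replicate block added *Tgfb1* as higher, at 1.76 ± 0.62 (adjusted p = 0.046), where 22.8% were called. *Tnc*, which encodes tenascin C, was higher in SI border than in centre cells by 5.75 ± 0.92 (adjusted p = 0.0066). *Tgfb1* was lower in SI than in LI centre cells, at -2.68 ± 0.65 (adjusted p = 0.030). Of 13 proteins and receptors of TGF-beta latency and signalling, *Smad4* was lower in SI row >3 than in centre cells, at -0.58 ± 0.14 (adjusted p = 0.0065). The other 12 were not called, where 13.2% of all genes were. The replicate block added *Smad7*, which was higher at 1.27 ± 0.20 (adjusted p = 6.3e-05), where 22.8% of all genes were called. Without SI replicate 3, the receptor *Tgfbr2* was lower in the SI than in the LI at each level, at -1.75 ± 0.16 in centre (adjusted p = 2.6e-08), -1.97 ± 0.17 in border (adjusted p = 9.3e-09) and -1.94 ± 0.16 in row >3 cells (adjusted p = 4.8e-09). All 18 libraries gave -1.37 ± 0.42 for centre (adjusted p = 0.12), -1.40 ± 0.42 for border (adjusted p = 0.12) and -1.40 ± 0.42 for row >3 (adjusted p = 0.083).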

How the data were processed

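RNA was measured in 18 libraries of sorted crypt cells. After trimming and alignment to mm10, the authors deposited a count of raw reads for each gene. Their second deposited table is a signal, the same counts divided by 1 DESeq2 size factor per library, constant to a relative deviation of 5.33e-15 here. Which annotation release and strand setting they used is not given in the sources used here.

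Raw counts were tested with edgeR 4.0.16 in R 4.3.3 (TMM factors, genes with a mean count above 0, glmQLFit with its robust option and legacy fitting off), in 1 fit of 6 groups with 12 residual degrees of freedom. The paper used DESeq2 and DESeq2 1.42.0 was an alternative. P-values were adjusted by Benjamini and Hochberg over all 26717 genes, and a gene was called at an adjusted p under 0.05. The SE of an edgeR difference was back-calculated, as the absolute log2 fold change divided by the square root of the F statistic. The procedure was tested on simulated data, and the outcome is not given here. Other alternatives were no filter and filterByExpr, library size only, RLE factors, the replicate block, each library left out, no SI replicate 3, and, added after seeing the data, the legacy fit. Members and gene lists were chosen with earlier results of these data known. Some genes of the lists are not reported here and were left out of the counts. The text names all 10 integrins. In each list it names genes called in most comparisons and those called in SI row >3 cells by the fit without a block.

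Deviations from group means over 10223 genes with at least 5 CPM had Pearson coefficients of 0.358 to 0.783 for 9 equal-number pairs within the SI, 0.444 to 0.684 for 9 within the LI and -0.1 to 0.438 for 27 across sites, where border cells had 0.197, 0.271 and 0.184. Across sites, centre cells had 0.0196, 0.314 and 0.0798 and row >3 cells -0.0296, 0.332 and 0.108, which overlap the border values. Pairs of unequal number were not computed. Equal numbers were taken to pair libraries within a site, and whether they pair the sites was not settled at any level. Positions and exon lengths came from GENCODE on GRCm38 and promoters from RefSeq. Figures were drawn with matplotlib in Python.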

Additional observations from a re-analysis of the deposited data

Results flagged for a closer look

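The step from centre to row >3 cells differed between SI and LI in a test of the difference itself for some integrins, in 2 of the alternative fits and not in the fit of all libraries without a block. With the replicate block within site, *Itgb4* rose more in the SI by 0.707 and *Itgb5* by 1.242 on the log2 scale. In the fit without a block, leaving out 1 library at a time gave 0.434 to 1.642 for *Itgb5* and 0.550 to 0.879 for *Itgb4*. That fit called neither gene, with all libraries or with 1 left out. The block was not run with single libraries left out. Without SI replicate 3, *Itga3* rose more in the SI by 1.101 and *Itgb4* by 0.957. *Itgb4* was the 1 integrin called in both, and the cause was not tested.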

How the results depend on the processing

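The counts of integrins called moved with the replicate block and with SI replicate 3 more than with scaling, filtering or tool. With the replicate block within site, which pairs libraries of equal number, 2 integrins were called in SI border against centre instead of 0, 7 in SI row >3 against centre instead of 4, 1 in LI row >3 against centre instead of 0 and 2 in the difference of that step between sites instead of 0. The block over all libraries called 2 in row >3 cells between sites instead of 0, where 6.89% of all genes were called. It changed no other count, and whether the numbers pair the sites was not settled. Without SI replicate 3, the calls were 1 in LI row >3 against centre, 2 in border, 3 in centre and 4 in row >3 cells between sites, and 2 in the difference of the step to row >3. For row >3 cells between sites, DESeq2 and filterByExpr called 2 and RLE factors 1, where they called 6.34%, 8.57% and 4.22% of all genes. In border cells between sites, no filter and library size only called 0 instead of 1, and 0.741% and 1.59% of all genes. Leaving out 1 library at a time gave 3 to 4 calls in SI row >3 against centre (7.45% to 14.3% of all genes called), 0 to 2 in SI border against centre (0% to 1.21%), 0 to 1 in centre (0.679% to 4.66%) and in border (0.519% to 3.24%) between sites and 0 to 3 in row >3 between sites (1.43% to 6.34%). *Itgb5* changed direction between sites without SI border replicate 2 (0.075 in border, where leaving out 1 library gave -1.386 to 0.075) and without SI row >3 replicate 2 (0.056) or LI row >3 replicate 1 (0.013), where the range was -1.131 to 0.056. The causes were not tested. Of 339 values of single integrins under alternatives, 290 kept their direction and side of the threshold. *Itgb8*, with 145 counts in all, is limited by its low counts.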
